A study of Mus musculus with 10 samples.

Results

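Mitochondrial ribosomal protein genes were taken as the protein-coding genes whose symbol is Mrpl or Mrps followed by a number and at most 1 letter, with at least 10 counts in every library. All 78 genes that matched the symbol reached that minimum, out of 55414 gene identifiers counted. They were measured by RNA sequencing of jejunum, a middle stretch of the small intestine, in 10 male C57BL/6J mouse samples that all carried RetSat flox/flox alleles, with 5 samples per group. The control samples were villin-Cre-ERT2 (-) and the RetSat ko samples were villin-Cre-ERT2 (+). Samples of both genotypes had received tamoxifen for 5 days and then a high-fat diet (60 kcal% fat) for 14 weeks. The villin promoter drives the tamoxifen-activated Cre recombinase in the intestinal epithelium, so other cells of the tissue keep the floxed gene. Enzyme loss and Cre activity come together here and cannot be told apart. The labels do not state that each sample came from its own animal, and the spread behind every p-value is that between the samples as deposited.

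Mitochondria keep their own ribosome, which makes the few proteins encoded by mitochondrial DNA, all of them core subunits of the respiratory chain and ATP synthase. Its RNAs come from mitochondrial DNA, whereas all its proteins are encoded in the nucleus, made in the cytosol and imported. The large subunit joins amino acids and holds the tunnel through which the new peptide leaves, and the small subunit reads the messenger RNA. Some of these proteins have relatives in all ribosomes, some only in bacteria, and some are found only in mitochondria.

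By current knowledge of the ribosome's structure, the 78 genes encode 51 proteins of the large subunit, 26 of the small subunit and 1 protein, Mrps36, that belongs to the 2-oxoglutarate dehydrogenase complex despite its name. Mrps18a and Mrps30 are counted with the large subunit, where their proteins sit. The genes are spread over the genome. Promoter windows (250 bases before to 50 bases from the transcription start, RefSeq, GRCm38.p6) were at hand for 69 of the 78. A gene counted as having a word if any of its windows held it. The shares of all windows are per window and so not like for like. The word CCGGAAG, the core recognised by ETS factors such as GABP, was searched on either strand. It was found in 26 of these 69 genes (37.7%), against 17.6% of 11809 tested protein-coding genes and 8.86% of all 32851 windows. GCATGCGC, part of the site of the respiratory factor NRF1, was in 8 members (11.6%, against 5.29% of the genes and 2.71% of all windows). AAGATGGC, the core of the YY1 site, was in 12 (17.4%, against 4.63% and 2.75%). At least 1 of these 3 words was in 38 of the 69 members (55.1%, against 24.97% of the genes). CACGTG, the E-box, and TATAAA, the TATA box, were each in 5 members (7.25%). They were in 10.96% and 9.97% of the genes and in 7.15% and 13.6% of all windows. Matches of different words overlapped in 0 member genes. Such a match describes letters, not binding.

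The stretches directly before the start are shown for 4 members that recur in the results, 5′ to 3′ on the gene's strand, with any searched word in capitals. Each is free of annotated exons. Mrpl52 (chr14:54426759-54426908, plus strand) and Mrps22 (chr9:98601680-98601829, minus strand) carry the ETS word, on opposite strands. Mrps12 (chr7:28741822-28741971, minus strand) is among the genes with the ETS and YY1 words in the whole window, but this stretch holds none of the 5 words. Mrps36 (chr13:100744660-100744809, minus strand), the gene outside the ribosome, has none in the stretch or in the window. All 4 positions are in GRCm38.p6.
Mrpl52: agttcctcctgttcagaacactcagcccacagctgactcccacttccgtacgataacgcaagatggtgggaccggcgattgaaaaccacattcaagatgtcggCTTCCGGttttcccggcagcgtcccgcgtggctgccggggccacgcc
Mrps22: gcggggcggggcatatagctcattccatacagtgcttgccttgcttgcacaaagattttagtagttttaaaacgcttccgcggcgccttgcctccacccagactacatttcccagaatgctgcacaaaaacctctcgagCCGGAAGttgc
Mrps12: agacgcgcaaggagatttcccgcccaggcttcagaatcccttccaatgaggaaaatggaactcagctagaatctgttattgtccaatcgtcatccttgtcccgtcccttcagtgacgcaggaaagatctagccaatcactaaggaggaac
Mrps36: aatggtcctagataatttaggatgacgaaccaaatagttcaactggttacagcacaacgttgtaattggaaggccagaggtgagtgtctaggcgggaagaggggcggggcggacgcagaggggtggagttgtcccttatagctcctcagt

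The genes often start head to head with another gene. In the coordinates of the count files (GRCm39), 33 of the 78 (42.3%) had a protein-coding gene on the opposite strand starting within 1000 bases and pointing away, against 14.2% of 15182 tested protein-coding genes. Mrpl46 and Mrps11 are such a pair of members, whose exons overlap by 173 bases. Mrps12 starts 172 bases from Sars2, which encodes the mitochondrial seryl-tRNA synthetase. Mrpl36 pairs with Ndufs6, a subunit of respiratory complex I, and Mrpl47 with Ndufb5, another. Exon bases were shared with another gene by 32 members, in 27 of them with a gene on the opposite strand, and since the counting used no strand, reads of the opposite-strand pairs cannot be told apart.

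The levels of the genes differed widely. Per kilobase of exon, the mean over the 10 libraries had a median of 16.3 counts per 1000000 (CPM per kilobase) over the 78 genes, with quartiles of 7.52 and 28.2. Mrpl12, the protein of the flexible stalk that recruits translation factors, was highest with 135 CPM per kilobase, 8.32 times the median. Mrpl34 followed with 117 and Mrpl54 with 65.3. The lowest were Mrps10 with 2.71, Mrpl23 with 1.11 and Mrpl53 with 0.656. Mrpl53, of the stalk base, shares 88.0% of its exon bases with the gene Gm42688 on the same strand, and its 41 to 81 counts per library are therefore uncertain. The exon lengths in the files include long alternative transcripts. With the length of the principal transcript instead, Mrpl12 and Mrpl34 stayed the highest (158 and 117 CPM per kilobase) and Mrpl53 the lowest (0.745), whereas Mrps10 was at 21.5, nearer to the median of 29.3.

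The libraries held 102844680 to 128730695 counts. Retsat was 340 to 576 CPM in control and 15.4 to 33.4 CPM in RetSat ko, which gave a log2 fold change of -4.49 ± 0.277 (SE, n = 5 each, edgeR adjusted p = 0.000101). All 12 absorptive enterocyte markers were found in every library, with a summed level of 53008 to 72489 CPM by plain library totals. Control 4 stood apart from the other control libraries for the genes described here. Leaving out RetSat ko 1 moved the called genes of the whole transcriptome from 4 higher and 2 lower to 371 and 475. RetSat ko 2, RetSat ko 1, control 5 and control 4 were richest in pancreatic acinar transcripts, and RetSat ko 2, control 4 and RetSat ko 3 in B cell transcripts.

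Nearly all of the genes had slightly higher values in RetSat ko, and none passed the test. Of the 78, 77 had a positive log2 fold change, including all 51 of the large and all 26 of the small subunit, with a median of 0.15, or 11.2% above control. The quartiles were 0.11 and 0.20. Over all 18654 tested genes 53.9% were positive, with a median of 0.020. In edgeR 0 of the 78 passed an adjusted p of 0.05 in either direction (smallest 0.291), where 0.0214% of all genes were called higher and 0.0107% lower. At an unadjusted p under 0.05, 44 of the 78 (56.4%) were higher and 0 lower, against 6.79% and 5.45% of all genes. Of the 78, DESeq2 called 2 higher (Mrps6 and Mrps12, adjusted p = 0.0248 and 0.0495), against 0.359% of all genes, and limma-voom 0. In 19 members (24.4%) all 5 RetSat ko libraries lay above all 5 control libraries, against 1.58% of all genes, and the opposite order occurred in 0 members, against 0.729%. With CPM from library totals only, the RetSat ko libraries lay above all control libraries in 12 members, against 1.95% of all genes. The genes share their libraries and vary together, so these counts do not stand for as many separate observations.

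**Figure D1:**
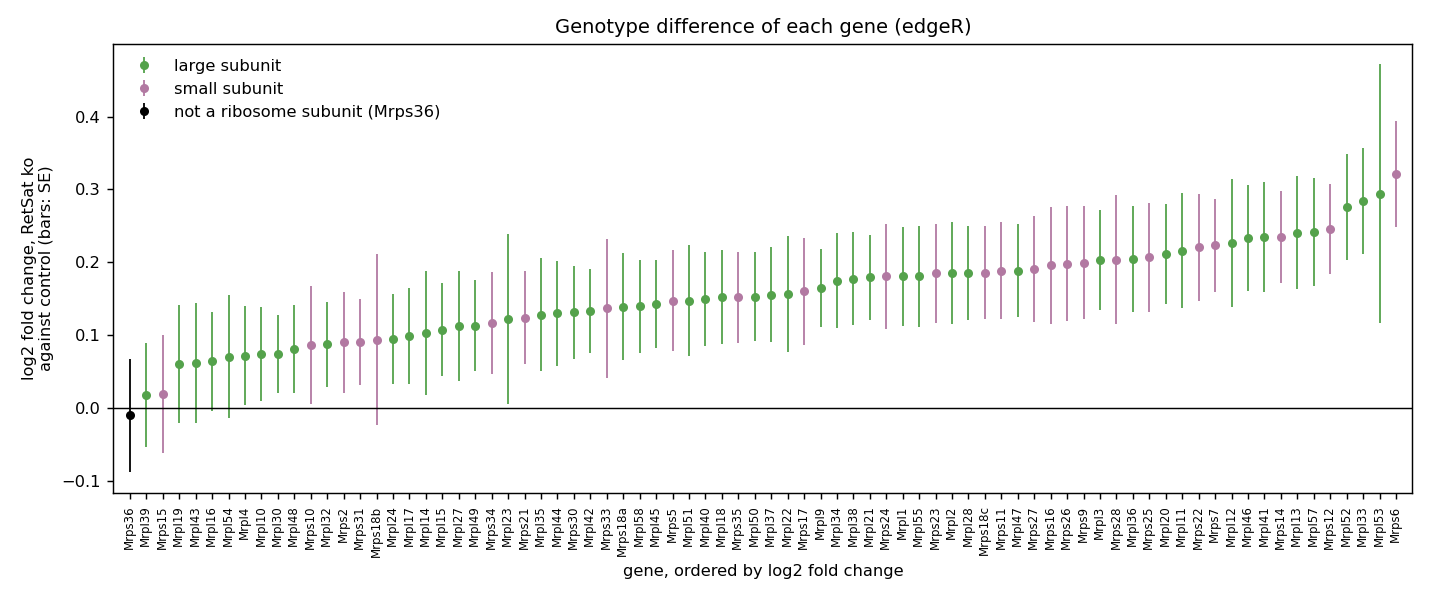
Log2 fold change of each of the 78 genes, RetSat ko against control (y axis), with its standard error from edgeR as a bar, ordered by size along the x axis and coloured by subunit. Of the points, 77 lie above 0, with quartiles of 0.11 and 0.20, and Mrps36, the gene outside the ribosome, lies at -0.011.

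Library by library, the groups were close together except for control 4. Each gene's log2 CPM was set against its own mean over the 10 libraries, and the median of these deviations was taken over the 78 genes. It was -0.012 in control 1, -0.038 in control 2, -0.065 in control 3, -0.24 in control 4 and -0.049 in control 5. The RetSat ko libraries 1 to 5 had 0.069, 0.12, 0.026, 0.063 and 0.14. The 2 groups did not overlap, but the distance between control 1 and RetSat ko 3 was smaller than that between control 4 and its neighbour. Control 4 was the lowest library for 70 of the 78 genes (89.7%, against 14.8% of all genes tested), and RetSat ko 5 was the highest for 35 (44.9%, against 11.3%). In control 4 the corresponding median was also lowest for nuclear respiratory chain genes (-0.18), cytosolic ribosomal protein genes (-0.17) and genes of mitochondrial mass and import (-0.11). Without control 4, 74 of the 78 genes were positive (against 54.9% of all genes) with a median of 0.12. In edgeR 27 of them then had an unadjusted p under 0.05 and were higher (against 5.49%), and 0 were lower (against 4.9%). All 5 RetSat ko libraries lay above the 4 remaining control libraries in 20 genes (against 2.06%).

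**Figure D2:**
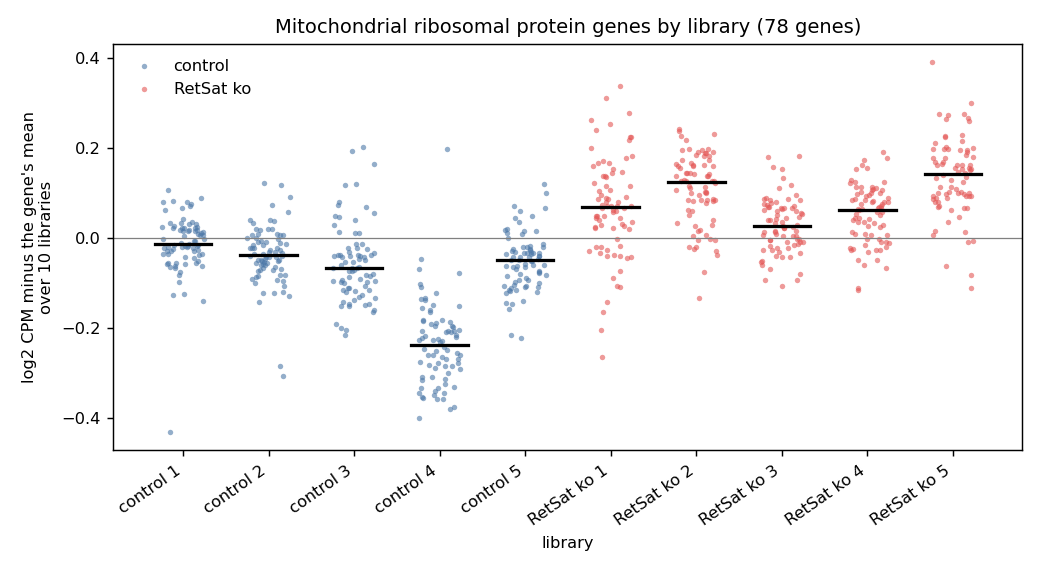
Log2 CPM of each of the 78 genes minus that gene's mean over the 10 libraries (y axis), by library (x axis), with control in blue, RetSat ko in red and the median of each library as a black bar. The bars of the 5 RetSat ko libraries lie above 0 and those of the 5 control libraries below it, with control 4 lowest at -0.24.

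As a plain share of all counts, without scaling factors, the 78 genes took 0.316%, 0.333%, 0.290%, 0.281% and 0.315% in control 1 to 5. They took 0.315%, 0.389%, 0.361%, 0.372% and 0.393% in RetSat ko 1 to 5. On this scale RetSat ko 1 lay among the control libraries and the other 4 RetSat ko libraries above them all. The scaling factor of RetSat ko 1 was the lowest of all (0.889), which raises its CPM. With RLE factors 77 of the 78 genes were positive (against 51.8% of all genes), with upper-quartile factors 78 (against 57.4%) and with library totals only 78 (against 71.4%).

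In the small subunit, the 26 genes had a median log2 fold change of 0.19. Of them, 17 had an unadjusted p under 0.05, all higher, where 6.79% of all genes were higher. Mrps6, a protein of the platform of the small subunit (ENSMUSG00000039680.11, chromosome 16, 91855158 to 91909115, plus strand, GRCm39), was 13.7, 12.1, 13.0, 13.5 and 14.7 CPM in control 1 to 5. It was higher in RetSat ko 1 to 5, with 17.8, 17.0, 15.7, 15.7 and 17.5 CPM. Every RetSat ko library lay above every control library. The means were 13.4 ± 0.955 and 16.7 ± 1.00 CPM (SD, n = 5 each), and the log2 fold change of 0.32 ± 0.0732 (SE) had an edgeR adjusted p of 0.291. Mrps6 shares 19.9% of its exon bases with Gm49711 and 10.4% with Slc5a3, an inositol transporter gene, both on the same strand, so its counts are less certain.

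Mrps12, the protein of the decoding centre (ENSMUSG00000045948.9, chromosome 7, 28439066 to 28441245, minus strand, GRCm39), was 33.4, 32.9, 32.8, 28.6 and 32.4 CPM in control 1 to 5. The RetSat ko libraries 1 to 5 held 36.6, 39.7, 38.7, 35.8 and 39.0 CPM. Again the groups did not overlap, with control 4 the lowest. This gave a log2 fold change of 0.25 ± 0.0617 (SE, edgeR adjusted p = 0.291). Without RetSat ko 1, Mrps12 and Mrps6 passed the threshold (edgeR adjusted p = 0.0427 and 0.0444), and they were the only 2 of the 78 that did, where 1.95% of all genes were called higher. Over the other edgeR settings the adjusted p of Mrps12 was as high as 0.977, reached without the 3 libraries richest in B cell transcripts.

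Mrps14 and Mrps7, which both belong to the head of the small subunit, had log2 fold changes of 0.23 and 0.22, with all RetSat ko libraries above all control libraries. For Mrps18c the groups did not overlap either (24.01 to 27.8 CPM in control, 27.9 to 31.9 CPM in RetSat ko). For Mrps22, a mitochondrion-specific protein, they did (23.9 to 27.7 and 27.3 to 33.7 CPM). At the other end, Mrps15 held 61.7 to 86.0 CPM in control and 72.6 to 79.1 CPM in RetSat ko, with a log2 fold change of 0.019 ± 0.0815. Mrps10 had 0.086 ± 0.0811.

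In the large subunit, the 51 genes had a median of 0.15. Of them, 27 had an unadjusted p under 0.05, all higher, where 6.79% of all genes were higher. Mrpl33, a small protein with a bacterial relative (ENSMUSG00000106918.4, chromosome 5, 31754279 to 31821728, plus strand, GRCm39, as for the genes that follow), was 20.9, 20.5, 19.4, 18.1 and 18.4 CPM in control 1 to 5. For RetSat ko 1 to 5 the values were 26.6, 24.3, 22.8, 22.1 and 22.8 CPM. The lowest RetSat ko library was above the highest control library, and the log2 fold change was 0.28 ± 0.0725 (SE, edgeR adjusted p = 0.291).

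Mrpl52, a protein of the central protuberance, the part of the large subunit that faces the head of the small one (ENSMUSG00000010406.13, chromosome 14, 54664366 to 54667213, plus strand), was 40.4, 39.0, 37.4, 31.9 and 39.7 CPM in control 1 to 5. The 5 RetSat ko libraries, in the same order, held 46.9, 48.1, 43.9, 42.4 and 46.8 CPM. The groups did not overlap, and the log2 fold change was 0.28 ± 0.0728 (SE, edgeR adjusted p = 0.291). Mrpl57 (0.24), Mrpl41 (0.23), Mrpl20 (0.21) and Mrpl9 (0.16) showed the same order of groups. Mrpl46, also of the central protuberance, and Mrpl13 had 0.23 and 0.24, and their groups overlapped.

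Mrpl12, the stalk protein and the most abundant member (chromosome 11, 120375439 to 120379891, plus strand), was 207, 206, 179, 162 and 202 CPM in control 1 to 5. RetSat ko 1 to 5 had 247, 241, 212, 202 and 216 CPM. RetSat ko 4 lay below control 1 and control 2, so the groups overlapped. The means were 191 ± 19.7 and 224 ± 19.4 CPM (SD, n = 5 each), with a log2 fold change of 0.23 ± 0.0882 (SE). Mrpl34, also abundant, had 0.17 with no overlap (58.9 to 71.2 and 71.3 to 78.8 CPM). The smallest values in the large subunit were those of Mrpl39 (0.018 ± 0.0711) and Mrpl19 (0.060 ± 0.0809). Mrps30 and Mrps18a, which sit in the large subunit despite their names, had 0.13 and 0.14.

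Mrps36, the protein of the 2-oxoglutarate dehydrogenase complex (ENSMUSG00000061474.12, chromosome 13, 100872463 to 100881167, minus strand), was 23.9, 21.7, 25.1, 19.8 and 22.4 CPM in control 1 to 5. RetSat ko 1 to 5 had 24.8, 20.4, 22.4, 22.1 and 22.3 CPM. The groups overlapped over most of their range. Its log2 fold change of -0.011 ± 0.0782 (SE, edgeR adjusted p = 0.967) was the lowest of the 78, although its distance from the other members was not tested.

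**Figure D3:**
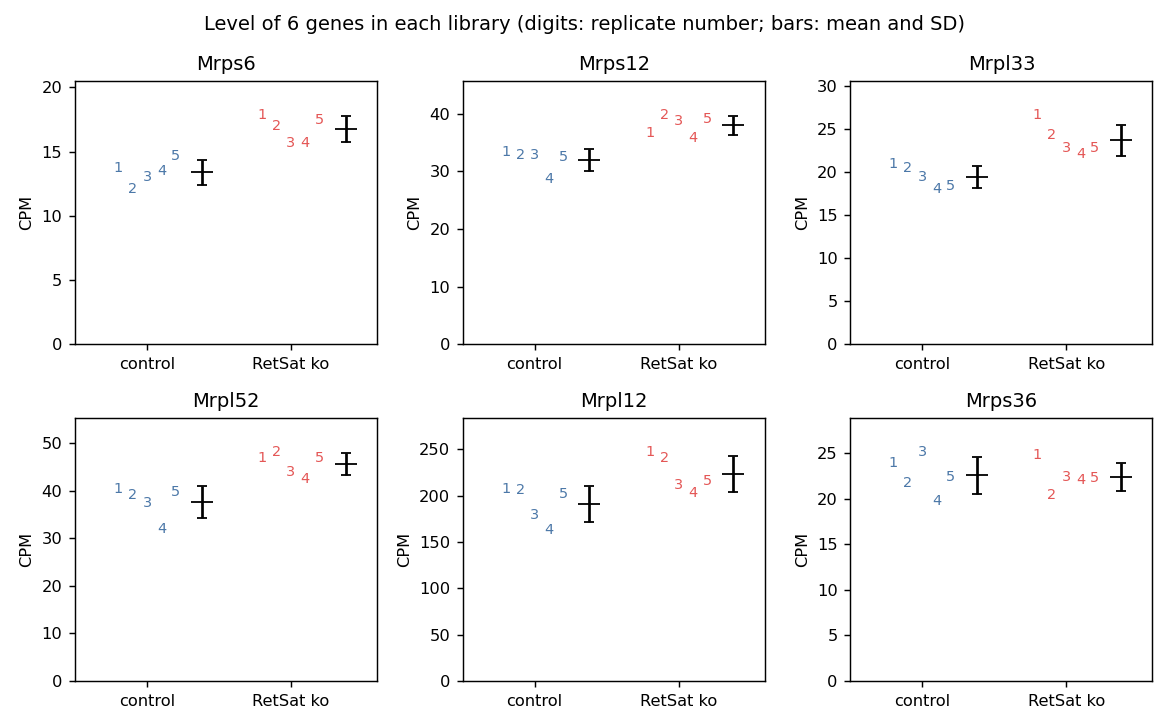
CPM (y axis, from 0) of Mrps6, Mrps12, Mrpl33, Mrpl52, Mrpl12 and Mrps36 in the control and RetSat ko libraries (x axis), with each library drawn as its replicate number and the mean and SD as a black bar. The groups are apart for the first 4 genes, overlap for Mrpl12 and overlap over most of their range for Mrps36.

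Grouped by the history of the proteins, the median log2 fold change was 0.16 for 27 proteins with relatives in all ribosomes. It was 0.18 for 19 shared with bacteria and 0.15 for 31 classed as mitochondrion-specific. All 77 were positive. By place in the large subunit, it was 0.22 for 4 proteins of the stalk and its base, 0.16 for 8 of the central protuberance and 0.13 for 8 around the exit of the peptide tunnel. The differences between these groups were not tested. Members with the ETS word in a promoter window had a median of 0.18 and the other members with a window 0.15. For the NRF1 word the medians were 0.096 and 0.17, and for the YY1 word 0.17 and 0.16. The 46 genes with no shared exon bases had a median of 0.15 and 45 positive members, and the 32 with shared bases had 0.17 and 32.

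Of 30 tested head-to-head partners outside the family, 21 were positive (against 53.9% of all genes), with a median of 0.085, and the members of these pairs had a median of 0.15. In edgeR 0 partners passed the threshold, and 1 was higher and 1 lower at an unadjusted p under 0.05, where 6.79% and 5.45% of all genes were. Sars2 had a log2 fold change of 0.15, against 0.25 for Mrps12. Ndufs6 had 0.16, against 0.20 for Mrpl36. These partners were chosen by position alone.

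Other genes of mitochondrial protein synthesis had smaller medians, all of them positive. In edgeR with all 10 libraries, 0 genes of these lists passed over all genes, in limma-voom 0, and in DESeq2 1, Hspe1. DESeq2 called 0.359% of all genes higher. For the counts that follow, 53.9% of all genes were positive in edgeR. At an unadjusted p under 0.05, 6.79% of all genes were higher and 5.45% lower. The 5 mitochondrial ribosome proteins without an Mrp name were all positive (median 0.11), and 2 of them had an unadjusted p under 0.05. Chchd1, of the small subunit, had 0.24 ± 0.0735, and Gadd45gip1, of the large subunit, had 0.23 ± 0.0814. Of 28 genes for assembly of the ribosome and modification of its RNA, 22 were positive (median 0.13), with 8 higher and 0 lower at an unadjusted p under 0.05. Mrm3, which methylates the large ribosomal RNA, had 0.42 ± 0.113, and Noa1, a GTPase needed for the small subunit, had 0.23 ± 0.0746. Of 15 translation factors and related proteins, 11 were positive (median 0.049), with 3 higher and 0 lower at that p. Tsfm, which recharges the elongation factor Tufm, had 0.24, and Mtrf1l, a release factor, 0.28.

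Of 20 mitochondrial aminoacyl-tRNA synthetase genes, 16 were positive (median 0.083), with 0.17 for Cars2 and 0.23 for Yars2. At an unadjusted p under 0.05 in edgeR, 2 were higher and 0 lower. Of 10 genes for copying and transcription of mitochondrial DNA, 7 were positive (median 0.10), where 53.9% of all genes were. At an unadjusted p under 0.05 in edgeR, 1 was higher and 1 lower. Ssbp1, which binds single-stranded mitochondrial DNA, had 0.28, and Polg2, the accessory subunit of its polymerase, -0.21. Of 9 regulators of mitochondrial gene expression, 6 were positive (median 0.019), against the same 53.9%. In edgeR 2 were higher and 2 lower at an unadjusted p under 0.05, where 6.79% and 5.45% of all genes were. The higher ones were Myc (0.46) and the coactivator gene Pprc1 (0.34). The lower ones, named outside the rule for their direction, were Ppargc1a (-0.33 ± 0.130), which encodes the coactivator PGC-1 alpha, and Gabpa (-0.20 ± 0.0810), which encodes the DNA-binding subunit of GABP. Of 19 genes of mitochondrial mass and import, 15 were positive (median 0.14), with 8 higher and 0 lower at an unadjusted p under 0.05. The chaperonin gene Hspe1 had 0.41 and the import gene Timm50 0.22. Without RetSat ko 1, Hspe1, Mrm3, Noa1, Myc and Pprc1 passed the threshold as higher (edgeR adjusted p from 0.0249 to 0.0410), and Ppargc1a passed as lower. In that fit 1.95% of all genes were called higher and 2.5% lower.

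The 2 large families nearest to these genes lay on either side of them. All 80 tested cytosolic ribosomal protein genes were positive, with a median of 0.22 and 73 at an unadjusted p under 0.05, all higher. Of 85 nuclear genes matched by symbol to the respiratory chain and ATP synthase, 74 were positive, with a median of 0.097. The match takes in complex II genes such as Sdha and assembly factor genes such as Sdhaf1. Of the 85, 6 had an unadjusted p under 0.05, all higher. Their 6 of 85 is near the background, since 6.79% of all genes were higher at that p. With all 10 libraries 0 genes of either family passed in edgeR or limma-voom. DESeq2 called 12 of the 80 cytosolic genes higher, against 0.359% of all genes, and edgeR without RetSat ko 1 called 34 higher, against 1.95%. Both called 0 of the 85 respiratory chain genes. The differences between the 3 families were not tested.

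**Figure D4:**
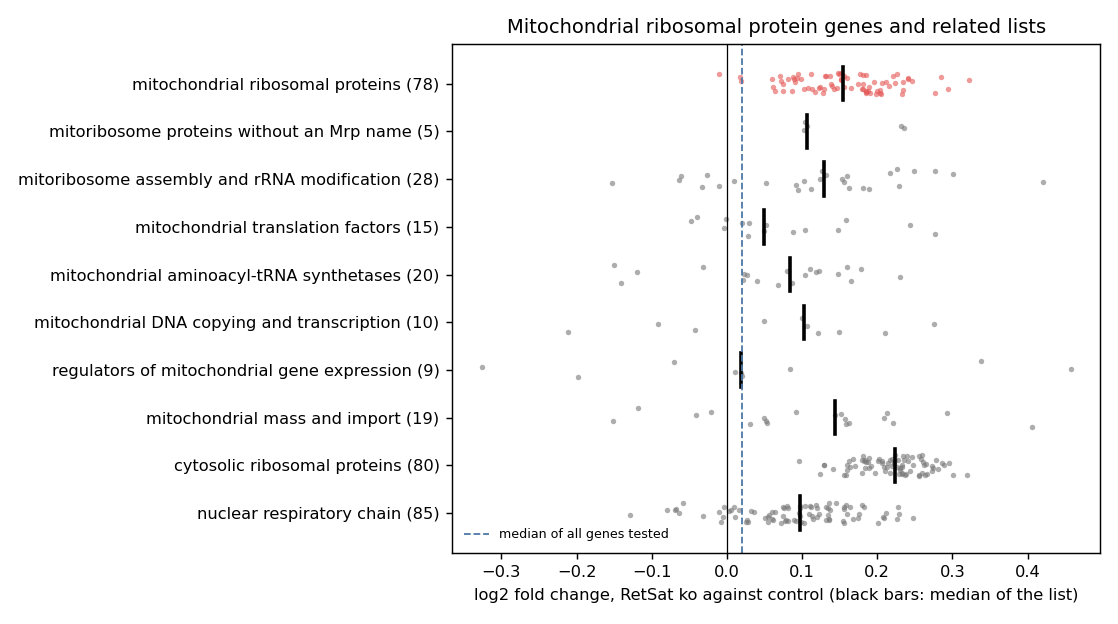
Log2 fold change, RetSat ko against control (x axis), of each gene in the mitochondrial ribosomal protein family (red) and in 9 related lists (grey), with the number of genes in brackets, the median of each list as a black bar and the median of all tested genes as a dashed line. The medians run from 0.019 for the regulators to 0.22 for the cytosolic ribosomal proteins, with the mitochondrial ribosomal proteins at 0.15.

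Values of cell type markers also differed between the groups, although none of the crypt, stem cell, Paneth cell or enterocyte markers passed the threshold in edgeR. In bulk tissue, fewer cells of a type and less RNA per cell cannot be told apart. The 10 markers of cycling crypt cells were all positive (median 0.30), with a summed level of 396 to 514 CPM in control and 395 to 654 CPM in RetSat ko. The sum was 395 CPM in RetSat ko 1 and 565 to 654 CPM in the other 4 RetSat ko libraries. In these 4 the unscaled share of counts in mitochondrial ribosomal protein genes lay above all control libraries. Both this share and the marker sums are unscaled. On scaled CPM the order of the libraries for the member genes differed, and the median member deviation of RetSat ko 1 was 0.069. It lay above RetSat ko 3 (0.026) and 4 (0.063) and below RetSat ko 2 (0.12) and 5 (0.14). The 7 stem cell markers were all positive (median 0.26, 493 to 715 and 509 to 918 CPM). The 7 Paneth cell markers were all positive, with a larger median of 0.83. Their summed level was 739 to 2425 CPM in control and 1320 to 3913 CPM in RetSat ko. At an unadjusted p under 0.05 in edgeR, 5 cycling, 3 stem and 4 Paneth cell markers were higher, where 6.79% of all genes were. The 6 smooth muscle markers were all positive too (median 0.27), with 0 at that p. The 12 absorptive enterocyte markers were all negative (median -0.35, 53008 to 72489 and 53433 to 65883 CPM). In edgeR 4 of them were lower at an unadjusted p under 0.05, where 5.45% of all genes were. The summed level of 10 acinar markers was 0.270 to 213 CPM in control and 0.823 to 2613 CPM in RetSat ko, with Cel, Amy2b, Cela2a, Cpa1, Try4 and Prss2 at 0 counts in at least 1 library. That of 8 B cell markers was 5.30 to 59.6 and 9.37 to 149.7 CPM. Of 6 plasma cell markers 5 were positive (median 0.20), and of 7 adipocyte markers 6 (median 2.11). The adipocyte markers Lep, Retn and Adipoq had 0 counts in at least 1 library. Of 6 goblet cell markers 5 were negative (median -0.077), and of 6 T cell markers 5 (median -0.32). The part of the crypt, stem cell, Paneth cell, enterocyte, smooth muscle, plasma cell, adipocyte, goblet cell and T cell markers in the result was not tested.

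Without the 4 libraries richest in acinar transcripts, which leaves 3 against 3, 75 of the 78 genes were positive (against 53.6% of all genes) with a median of 0.10. In edgeR 12 had an unadjusted p under 0.05 and were higher (against 7.97%), and 0 were lower (against 8.36%). Without the 3 libraries richest in B cell transcripts, which leaves 4 against 3, 74 were positive (against 50.5%) with a median of 0.11, 14 had an unadjusted p under 0.05 and were higher (against 2.29%), and 0 were lower (against 2.09%). Without RetSat ko 2, which is richest in both, all 78 were positive (against 52.4%) with a median of 0.15, 28 had an unadjusted p under 0.05 and were higher (against 4.66%), and 0 were lower (against 3.53%). Without RetSat ko 5, 31 had an unadjusted p under 0.05 and were higher (against 4.52%). Both sets of marker-rich libraries hold control 4 and RetSat ko 2 and leave fewer libraries, so marker content, these single libraries and the smaller design cannot be told apart. The median stayed above that of all genes in every setting tried, by 0.079 to 0.16.

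**Figure D5:**
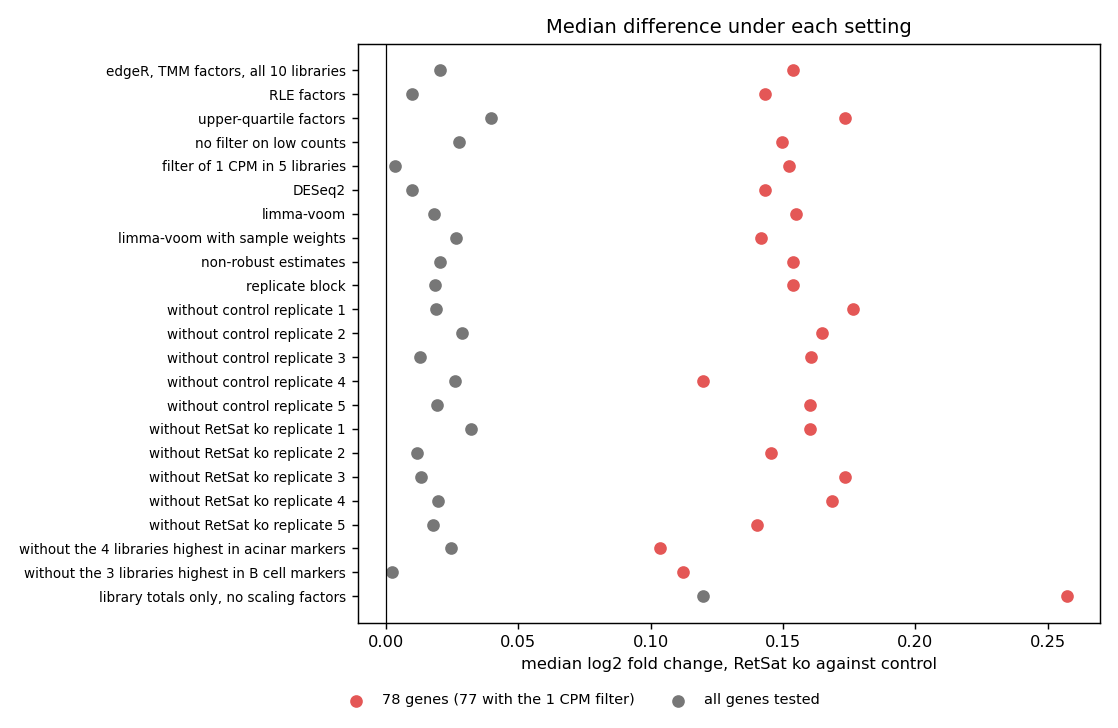
Median log2 fold change, RetSat ko against control (x axis), of the mitochondrial ribosomal protein genes (red) and of all tested genes (grey) under each test, scaling, filter and set of libraries (y axis). The red points lie between 0.10 and 0.26 and the grey points between 0.0022 and 0.12, and in each setting the red point lies to the right of the grey one.

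Within groups the genes varied together. After subtracting each group's mean, the correlation of log2 CPM between 2 member genes over the 10 libraries had a median of 0.56 over the 3003 pairs and was positive in 89.2% of them. Without control 4 the median was 0.25 over 9 libraries, with 68.5% of pairs positive. These correlations share libraries and depth and are given as a description.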

How the data were processed

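The authors deposited, for every library, a file of unnormalized read counts by gene. Trimmomatic and STAR, with the build GRCm39, are named in the submitters' processing notes. Per the file headers, featureCounts 2.0.1 counted exons by gene in GENCODE mouse release M28, each read going to its largest overlap, with no option for strand, pairs or multiple alignments. Multiply aligned reads are then not counted, so genes with near-identical pseudogenes may be undercounted.

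Symbols were matched by identifier for 52081 of 55414 genes (94.0%), with gene types from GENCODE M21. R 4.3.3 and edgeR 4.0.16 were used for the robust quasi-likelihood F-test, with filterByExpr, TMM factors and no covariates. P-values were adjusted by Benjamini-Hochberg over the 18654 genes kept, and 0.05 was the cutoff. CPM are counts per 1000000 of the TMM-scaled library, except for the summed levels of marker lists, which use plain library totals. The alternatives included DESeq2 1.42.0 and limma 3.58.1. On simulated counts for RetSat ko against control (18294 genes tested), 40% of genes changed 1.5-fold and 92% of those changed 2-fold were recovered. The changed genes were drawn at random from expressed genes. These shares therefore do not give the recovery for the genes described here, whose differences are smaller than 1.5-fold.

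Members and lists were chosen with earlier results of these data known. Named were the 8 large- and 6 small-subunit members with the smallest p, the extremes in fold change and level, members called without RetSat ko 1, misnamed members, and 2 genes of each related list. Other pairs of genes, promoter words and members are named for position, sequence or overlap. Replicate numbers were not shown to pair the samples (correlations of deviations from -0.15 to 0.0021).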

Additional observations from a re-analysis of the deposited data

Results flagged for a closer look

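Control 4 lay farther below the other control libraries than the spread of the rest for several members. Its CPM was 18.2 for Mrpl41, 28.6 for Mrps12, 33.2 for Mrps14, 24.01 for Mrps18c and 27.2 for Mrps18a, where the nearest control library was at 21.4, 32.4, 37.3, 26.8 and 33.1 CPM. The median deviation of the members in control 4 was -0.24, with the nearest control library at -0.065. Mrpl19 in RetSat ko 1 was 22.5 CPM, with the nearest RetSat ko library at 26.5. Retsat in RetSat ko 5 was 33.4 CPM, against 16.8 in the nearest. Over all 78 genes and both groups (156 tests) control 4 was far below the rest in 12 and RetSat ko 1 in 1. Chance flags about 1 in 20 such groups.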

How the results depend on the processing

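With 2 exceptions, no setting called a member: DESeq2 called 2 higher, and without RetSat ko 1 edgeR called 2 higher (range 0 to 2 when each library was left out in turn). No setting called a member lower. The count of positive genes ranged from 74 to 78, and the median from 0.12 to 0.18, when 1 library was left out. With library totals only, chosen after seeing the data, the median was 0.26, while that of all genes was 0.12, against 0.020 with TMM factors, and the groups did not overlap in 12 genes, against 19. Same-numbered samples were not shown to pair. With the replicate number as a block, 77 genes were positive with a median of 0.15, and 0 were called. In that fit 37 had an unadjusted p under 0.05, all higher, against 1912 of all 18654 genes in either direction. No control library correlated best with the RetSat ko library of its own number.

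Signs changed for genes near 0. Mrps36 was 0.0083 with upper-quartile factors and 0.087 with library totals only, and from -0.056 to 0.031 when 1 library was left out. Mrps15 was -0.0033 with sample weights in limma-voom, -0.066 when the acinar-rich libraries were left out, -0.026 when the B cell-rich ones were, and from -0.045 to 0.073 when 1 library was left out. Mrpl19 was -0.014 without the B cell-rich libraries. Mrpl39 ranged from -0.018 to 0.052 and Mrpl54 from -0.0023 to 0.10 when 1 library was left out. Without the acinar-rich libraries Retsat had an edgeR adjusted p of 0.0918 and a log2 fold change of -4.51. Depth limits Mrpl53 most, with 41 to 81 counts per library and the highest standard error of the 78 (0.178, against a median of 0.0696).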

Other observations

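The RNAs of the mitochondrial ribosome were counted along with the messenger RNAs. They were chosen outside the rule for named genes. The small-subunit RNA gene mt-Rnr1 had means of 426 ± 143 CPM for the control and 427 ± 114 CPM for the RetSat ko libraries (SD, n = 5 each), with a log2 fold change of 0.0048 ± 0.247 (SE, edgeR adjusted p = 0.996). The large-subunit RNA gene mt-Rnr2 was 1150 ± 276 and 1145 ± 284 CPM, with -0.0059 ± 0.197 (adjusted p = 0.994). Their standard errors are larger than the median difference of the protein genes, 0.15, so a difference of that size was not detectable for them. The labels do not say whether ribosomal RNA was depleted or polyadenylated RNA selected.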
